A study of Mus musculus with 6 samples.

Results

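A group of 10 early response genes of mouse myeloid-derived suppressor cells is described here, chosen by symbol: Egr1, Egr2, Egr3, Ier2, Ier3, Ier5, Nr4a1, Nr4a2, Nr4a3 and Zfp36. All 10 symbols were found among the 24312 rows of the authors' deposited gene table. The 2 groups were 3 Pim1-/- libraries and 3 WT libraries, and the labels give the strain of both as C57BL/6. Cells of both groups were femur bone marrow kept for 7 days in GM-CSF at 40 ng/mL plus IL-6 at 40 ng/mL, and were labelled CD11b+ Gr1+. Libraries were made by Smart-seq2, a method that reads transcripts with a poly(A) tail over their whole length, and the comparison asks what differs in these cells when the kinase Pim1 is missing. The labels do not give the age or sex of the mice or the part of Pim1 that was deleted.

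Immediate early genes are transcribed within minutes of a stimulus from factors already present in the cell, so their RNA can appear before any new protein is made. Many are switched on through kinases of the ERK and p38 pathways, which act on serum response factor with its ternary complex partners and on CREB. Their RNAs are short-lived. In myeloid cells they follow growth factors, cytokines and microbial products: EGR factors take part in monocyte and macrophage differentiation, Nr4a1 is needed in mice for patrolling monocytes, and Zfp36 encodes tristetraprolin, which binds AU-rich RNA and speeds the decay of cytokine transcripts.

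Upstream sequence was matched by symbol for 7 of the 10 genes in RefSeq on GRCm38.p6. The 250 bases before the transcription start are shown for 4 of them, because they cover genes that were lower in Pim1-/- (Egr2 and Zfp36) and genes of the other families that were not called (Nr4a1 and Ier3). Egr2 has several annotated starts, and the one shown lies as far from the gene's end as the length of its locus in the authors' deposited table. Each reads 5′ to 3′ on the gene's strand, with matches to the searched motifs in capitals.
Egr2, chr10:67537619-67537868, plus strand: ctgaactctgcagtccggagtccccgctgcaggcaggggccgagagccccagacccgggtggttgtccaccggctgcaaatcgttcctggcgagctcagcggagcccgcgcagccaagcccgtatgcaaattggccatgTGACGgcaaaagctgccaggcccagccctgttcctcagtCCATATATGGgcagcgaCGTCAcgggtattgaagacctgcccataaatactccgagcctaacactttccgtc
Zfp36, chr7:28379229-28379478, minus strand: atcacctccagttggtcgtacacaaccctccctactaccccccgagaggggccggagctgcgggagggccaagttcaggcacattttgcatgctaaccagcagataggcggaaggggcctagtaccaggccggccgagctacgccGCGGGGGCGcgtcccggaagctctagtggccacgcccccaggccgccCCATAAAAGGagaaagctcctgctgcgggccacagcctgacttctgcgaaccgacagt
Nr4a1, chr15:101266596-101266845, plus strand: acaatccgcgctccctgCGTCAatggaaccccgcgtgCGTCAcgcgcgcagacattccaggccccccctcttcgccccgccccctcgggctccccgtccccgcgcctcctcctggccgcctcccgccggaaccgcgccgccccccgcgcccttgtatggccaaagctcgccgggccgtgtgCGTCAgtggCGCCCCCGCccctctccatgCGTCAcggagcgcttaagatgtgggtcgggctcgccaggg
Ier3, chr17:35821463-35821712, plus strand: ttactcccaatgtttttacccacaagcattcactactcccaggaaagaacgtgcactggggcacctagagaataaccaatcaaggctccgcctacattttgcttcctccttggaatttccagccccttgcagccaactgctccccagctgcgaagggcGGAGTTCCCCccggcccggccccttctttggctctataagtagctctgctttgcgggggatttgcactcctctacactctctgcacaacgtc

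The longest capitals in Egr2 and Zfp36 mark a CArG box, the site of serum response factor, at positions -72 to -63 in Egr2 and -58 to -49 in Zfp36, counted from the base before the start as -1. In Nr4a1, all matches are on the other strand, so its capitals read CGTCA and CGCCCCCGC. They mark TGACG, the core of the cyclic AMP response element, 4 times, and GCGGGGGCG, the site bound by EGR factors, once at -60 to -52. The same EGR site stands at -105 to -97 in Zfp36, and TGACG stands at -111 to -107 and, on the other strand, at -55 to -51 in Egr2. The only match in Ier3 was an NF-kB site at -92 to -83, also on the other strand. Both strands of each window were searched, and the matches shown do not overlap.

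The authors' deposited table pools the libraries of each genotype into 1 value, so levels below carry no spread between libraries. Levels are in FPKM, fragments scaled to transcript length and sequencing depth, a reading taken from the column layout because the header names no unit. A gene is called when its deposited q-value, an adjusted p over the 11079 rows the authors tested, is under 0.05, and the smallest q the table can give is 0.000831. The error given with a fold change is its log2 value over the test statistic of the same row. Expressed as normal deviates, the deposited p-values were a median of 1.74 times that statistic over rows with a moderate one. The printed errors are thus wider than those p-values imply. Depth per library is unknown. Fewer cells of a type and less RNA per cell cannot be told apart in these bulk values.

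The targeted gene Pim1 was at 22.7 FPKM in Pim1-/- cells against 90.2 FPKM in WT cells in the authors' deposited table, for a log2 fold change of -1.99 (error 0.25, adjusted p = 0.000831). Of the gate markers, Itgam, which encodes CD11b, was at 152 FPKM in Pim1-/- and 139 FPKM in WT (adjusted p = 0.644), and Ly6c2, part of the Gr1 antigen, at 997 FPKM in Pim1-/- and 392 FPKM in WT (adjusted p = 0.000831) in the authors' deposited table. Ly6g was looked for and had no row under that symbol in the authors' deposited table. Over all tested rows, 6.79% were called higher and 6.73% lower, the shares to set beside each marker count below. Of 12 neutrophil markers 8 were called higher and 0 lower, with a summed level of 14197 FPKM in Pim1-/- and 7516 FPKM in WT. Their most abundant members were S100a8, at 6257 FPKM in Pim1-/- and 1308 FPKM in WT, and Wfdc21, at 4771 FPKM in Pim1-/- and 4990 FPKM in WT, in the authors' deposited table. There S100a9 was at 2029 FPKM in Pim1-/- and 369 FPKM in WT. The 4 not called were Wfdc21, Mmp8 (adjusted p = 0.869), Cxcr2 (adjusted p = 0.925) and Retnlg (adjusted p = 0.567). Maturity of the neutrophils was not tested. Markers of granule precursors (4 higher, 0 lower of 8 tested; summed level 745 FPKM in Pim1-/- and 785 FPKM in WT) were led by Chil3 and Prtn3, neither of them called. Monocyte markers (5 higher, 0 lower of 8; 1606 FPKM in Pim1-/- and 918 FPKM in WT) were led by Ly6c2 and Csf1r, and macrophage markers (0 called of 8, 1 each way at an unadjusted p under 0.05; 5224 FPKM in Pim1-/- and 4577 FPKM in WT) by C1qb and Cd68. Dendritic cell markers (1 higher, 1 lower of 4 tested; 30.5 FPKM in Pim1-/- and 62.6 FPKM in WT) were led by Itgax, which was lower, and Ccr7, which was higher. Mast cell, basophil and eosinophil markers (1 higher, 1 lower of 4 tested) were led by Siglecf and Kit and summed to 11.4 FPKM in Pim1-/- and 12.4 FPKM in WT. T cell, NK cell and erythroid markers (Cd3d, Cd8a, Klrb1c, Gzma, Alas2 and Hba-a2 the most abundant) were each below 0.31 FPKM in both genotypes, with Ncr1 and Hbb-bs at 0 in both. B cell markers, led by Cd79b and Cd79a, reached at most 1.27 FPKM, with Ms4a1 and Pax5 at 0 in both. Xist was at 7.21 FPKM in Pim1-/- and 5.21 FPKM in WT in the authors' deposited table. The Y-linked Eif2s3y was at 0.0191 FPKM in Pim1-/- and 6.79 FPKM in WT (adjusted p = 0.537, or 0.00607 with the test statistic taken as a normal deviate). Ddx3y was at 0.0103 FPKM in Pim1-/- and 2.56 FPKM in WT. Kdm5d and Uty were at 0 in Pim1-/- and at 0.454 and 0.462 FPKM in WT. WT thus held both Xist and Y-linked RNA, and the sex of the mice and genotype cannot be told apart. The part of these marker and sex differences in the results below was not tested.

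Of the early response genes, 4 were lower in Pim1-/- cells: Egr1, Egr2, Ier2 and Zfp36. Ier3, Ier5, Egr3 and Nr4a1 were tested and not called, and Nr4a2 and Nr4a3, the least abundant, were not tested by the authors. Thus 4 of 8 tested genes were called lower, where 6.73% of all 11079 tested rows were, and 0 were called higher, where 6.79% of all tested rows were. At an unadjusted deposited p under 0.05 the counts were 5 lower and 0 higher. Of the 10 genes, 9 had a fold change below 0, among them the untested Nr4a2 and Nr4a3. Among the 8 tested, all but Egr3 were below 0, against 47.8% of all tested rows. The median log2 fold change was -0.70 over the 10 genes and -0.73 over the 8 tested, against 0.01 over all tested rows. All 4 genes called lower were among the 5 with a mean of at least 10 FPKM, and at that level 7.38% of 4890 tested rows were called lower. Reading the deposited test statistic directly as a normal deviate called fewer rows, 366 against 1498, with 361 called both ways. That reading also called the 4 lower and 0 higher, where it called 1.46% of tested rows lower and 1.84% higher. These genes were chosen with earlier results of the same data known, so the shares describe them and test nothing.

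The 10 genes spanned more than 3 orders of magnitude in level and kept the same order in both genotypes. Ier3 was highest, followed by Zfp36, Ier2, Egr1, Egr2, Ier5, Nr4a1, Egr3, Nr4a3 and Nr4a2. Summed, the 10 genes were at 600.5 FPKM in Pim1-/- and 919.5 FPKM in WT. Ier3 alone made up 61.2% of the sum in Pim1-/- and 44.6% in WT. Without library values it cannot be said which neighbours in that order differ beyond their spread.

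**Figure D1:**
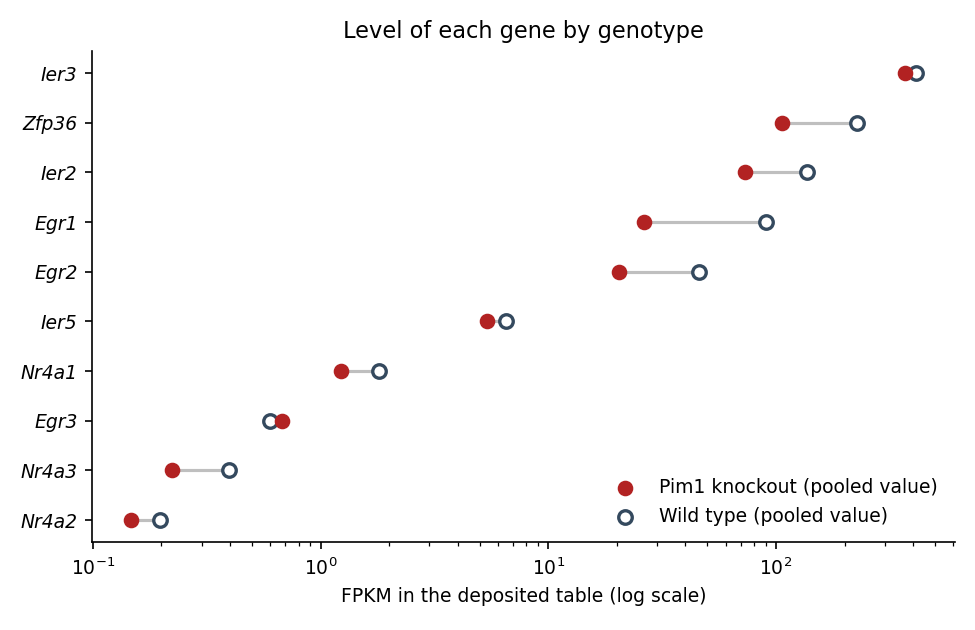
Pooled level of each of the 10 genes in FPKM (log axis), with Pim1-/- as filled red points and WT as open points. The gap between genotypes is wide for Egr1 (26.2 FPKM in Pim1-/-, 90.05 FPKM in WT), Egr2, Ier2 and Zfp36, and narrow for Ier3 at the top.

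The EGR genes encode zinc finger transcription factors that bind the same GC-rich site. Egr1, the member induced most widely by growth factors, was at 26.2 FPKM in Pim1-/- cells and 90.05 FPKM in WT cells in the authors' deposited table. That is a log2 fold change of -1.78 (error 0.25, adjusted p = 0.000831), or 3.43-fold lower. The gene stood high in WT, with 9.64% of tested rows above it, whereas 24.9% of tested rows stood above it in Pim1-/-. Only 12 of the 4890 tested rows with a mean of at least 10 FPKM had a lower fold change than Egr1.

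Egr2, known from macrophages, T cells and myelinating Schwann cells, was at 20.4 FPKM in Pim1-/- and 45.7 FPKM in WT in the authors' deposited table. Its log2 fold change was -1.16 (error 0.25, adjusted p = 0.000831), or 2.24-fold lower. Egr3 was at 0.675 FPKM in Pim1-/- and 0.596 FPKM in WT, a log2 fold change of 0.18 (error 0.49, adjusted p = 0.784) in the authors' deposited table. At that low level its interval of 1.96 errors, 95% only if the test statistic is a normal deviate, ran from -0.78 to 1.14. Egr4 was listed at 0 in both genotypes.

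The pooled ratios among the EGR genes differed between genotypes, but the table gives no test of a ratio. The ratio of Egr1 to Egr2 was 1.28 in Pim1-/- and 1.97 in WT, and Egr1 held 55.4% of the summed Egr1, Egr2 and Egr3 level in Pim1-/- against 66.04% in WT. The fold change of Egr1 was lower than that of Egr2 by 0.62 on the log2 scale, with a combined error of 0.35, taking the errors as independent. That difference is within 1.96 combined errors of 0, but over rows with a moderate statistic such errors are wider than the deposited p-values imply. Against Egr3 the difference was -1.96 for Egr1 (combined error 0.55) and -1.34 for Egr2 (combined error 0.55). Of the corepressors that bind EGR factors, Nab1 was at 5.93 FPKM in Pim1-/- and 4.33 FPKM in WT (log2 fold change 0.45, error 0.27, adjusted p = 0.0355) in the authors' deposited table. That call was lost at a threshold of 0.01 and when the test statistic was taken as a normal deviate (adjusted p = 0.777). Nab2, which EGR factors themselves can induce, was at 7.67 FPKM in Pim1-/- and 12.5 FPKM in WT (log2 fold change -0.70, error 0.71, adjusted p = 0.304) in the same deposited table of the authors.

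The tristetraprolin gene Zfp36 was at 106 FPKM in Pim1-/- and 227 FPKM in WT in the authors' deposited table. Its log2 fold change was -1.10 (error 0.24, adjusted p = 0.000831), or 2.15-fold lower. An antisense gene, Gm44710, overlaps exons of Zfp36 in the GENCODE M21 annotation, and since use of strand in counting is not given in the sources used here, reads of the pair cannot be told apart. The relatives Zfp36l1 and Zfp36l2, which bind the same kind of AU-rich RNA, were not called. Zfp36l1 was at 121 FPKM in Pim1-/- and 120 FPKM in WT (log2 fold change 0.01, error 0.23, adjusted p = 0.981), and Zfp36l2 at 14.4 FPKM in Pim1-/- and 18.4 FPKM in WT (log2 fold change -0.36, adjusted p = 0.079) in the authors' deposited table. Zfp36 was thus at 0.872 times the level of Zfp36l1 in Pim1-/- and 1.89 times in WT. The fold change of Zfp36 was lower than that of Zfp36l1 by 1.11 on the log2 scale (combined error 0.33) and than that of Zfp36l2 by 0.75 (combined error 0.34).

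The Ier genes share a name for their rapid induction rather than one function. Ier2, a nuclear regulator of transcription, was at 73.2 FPKM in Pim1-/- and 137 FPKM in WT in the authors' deposited table. Its log2 fold change was -0.91 (error 0.24, adjusted p = 0.000831), or 1.88-fold lower. Ier3, a regulator of cell survival and ERK signalling, was at 367 FPKM in Pim1-/- and 410 FPKM in WT, with a log2 fold change of -0.16 (error 0.23, adjusted p = 0.518) in the authors' deposited table. Its interval of 1.96 errors ran from -0.62 to 0.30. Ier5, a regulator of the heat shock factor HSF1, was at 5.37 FPKM in Pim1-/- and 6.52 FPKM in WT, with a log2 fold change of -0.28 (error 0.29, and an adjusted p of 0.302 from the authors' deposited table). The fold change of Ier2 was lower by 0.75 than that of Ier3 (combined error 0.33) and by 0.63 than that of Ier5 (combined error 0.38). The difference from Ier5 is within 1.96 combined errors of 0, again with errors wider than the deposited p-values imply over rows with a moderate statistic. Ier3 is the only one of the 10 on chromosome 17, 6.33 Mb from Pim1 in the coordinates of the table.

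The Nr4a genes encode orphan nuclear receptors and were low in both genotypes. Nr4a1 was at 1.23 FPKM in Pim1-/- and 1.80 FPKM in WT, with a log2 fold change of -0.55 (error 0.44) in the authors' deposited table, where the unadjusted p was 0.0287 and the adjusted p was 0.142. Nr4a2 was listed at 0.147 FPKM in Pim1-/- and 0.196 FPKM in WT, and Nr4a3 at 0.222 FPKM in Pim1-/- and 0.397 FPKM in WT, both untested in the authors' deposited table. All 3 values were lower in Pim1-/-, but Nr4a1 missed the threshold and the authors did not test the other members. Rxra and Rxrb, partners with which Nr4a1 and Nr4a2 can pair, were not called.

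**Figure D2:**
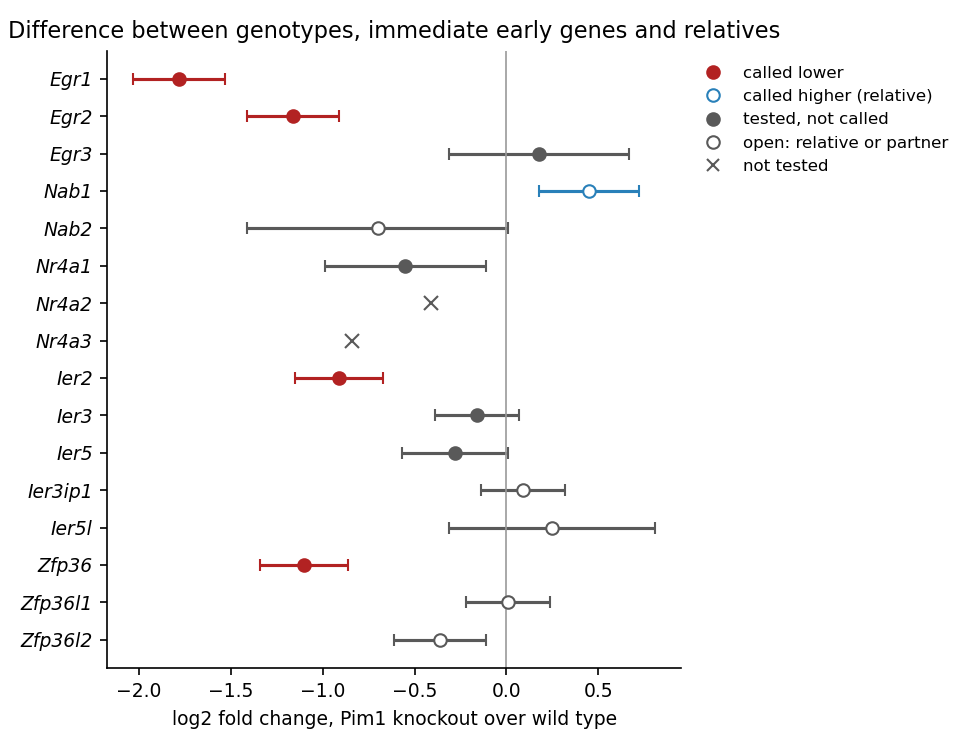
Log2 fold change, Pim1-/- over WT, of the 10 genes (filled points, or crosses where not tested) and of their relatives and partners (open points), each bar 1 error on either side. Egr1 (-1.78), Egr2 (-1.16), Zfp36 (-1.10) and Ier2 (-0.91) lie left of 0, while Zfp36l1 (0.01) and Ier3 (-0.16) lie near it.

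The 10 genes lie on 10 different chromosomes, so none is a neighbour of another. In the table's coordinates, whose build could not be settled, Egr1 spans 35020861 to 35024610 on chromosome 18 and Egr2 67000617 to 67004936 on chromosome 10. Zfp36 spans 29161803 to 29164247 on chromosome 7 and Ier2 87185230 to 87186751 on chromosome 8. The loci of the 4 genes called lower were 1522 to 4320 bases long, and those of the 4 tested and not called 1199 (Ier3) to 7949 bases (Nr4a1). Ier2 and Ier5 have a single annotated exon, and Nr4a2 and Nr4a3 have up to 8.

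**Figure D3:**
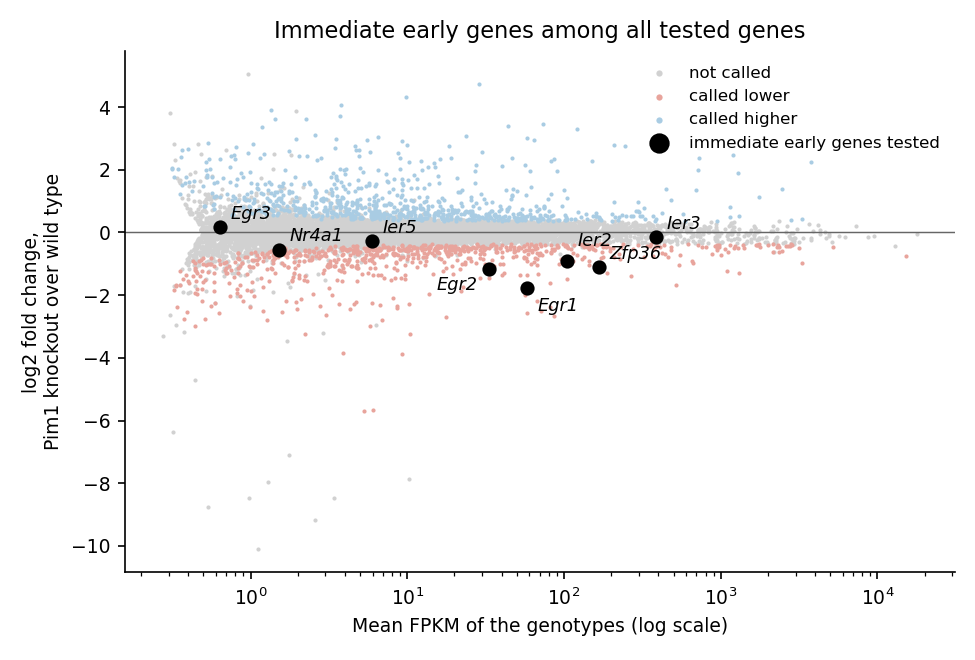
Log2 fold change, Pim1-/- over WT, against mean FPKM (log axis) for every tested gene with a finite fold change, the 8 tested early response genes in black. Egr1, Egr2, Ier2 and Zfp36 lie below the band of genes that were not called, and Ier3 lies inside it at a mean near 389 FPKM.

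Motifs were searched in the 7 genes with upstream sequence, so Egr1, Egr3 and Ier2 were not searched, and 2 of these, Egr1 and Ier2, are among the 4 genes called lower. An exact CArG box (CCWWWWWWGG, W being A or T) was found in 2 of the 7, Egr2 and Zfp36, and in 1.62% of all 27025 genes with such sequence. Looser forms of that site were not searched. TGACG was found in 4 of the 7 (Egr2, Nr4a1, Nr4a2 and Nr4a3) and in 19.8% of all genes. GCGGGGGCG was found in Zfp36 and Nr4a1 and in 2.93% of all genes, and an NF-kB site in Ier3 and, before another start, Egr2, and in 8.23% of all genes. TATAAA was found in Nr4a2 and in 14.3% of all genes. TGACGTCA, which holds TGACG, was found in 0 of the 7 and 1.77% of all genes, the AP-1 site TGANTCA in 0 and 7.82%, and the NR4A site AAAGGTCA in 0 and 1.55%. A gene with several starts counted when any held the motif.

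**Figure D4:**
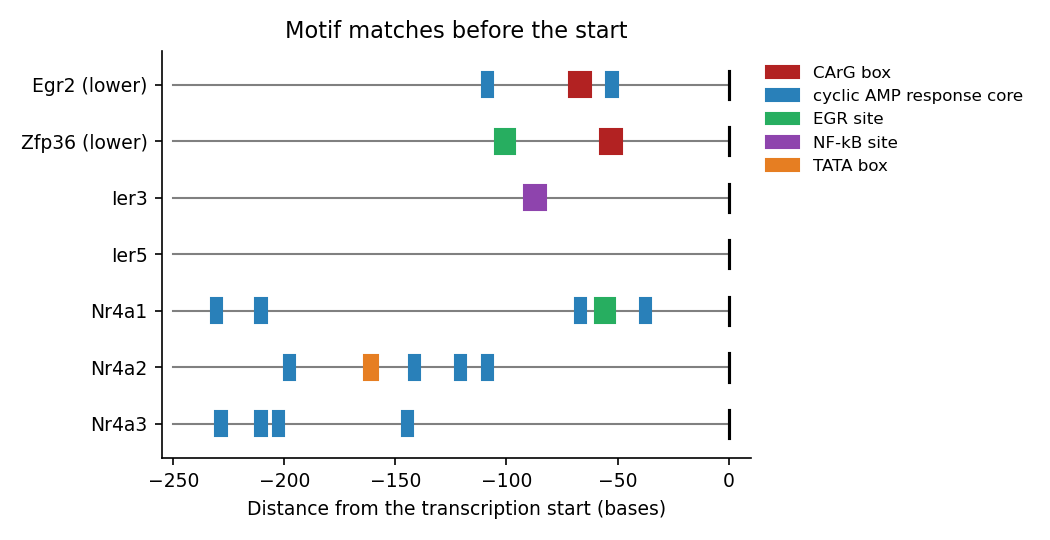
Motif matches in the 250 bases before the start of the 7 genes with upstream sequence, by distance from the start (black bar, in bases), boxes coloured by motif. The CArG boxes stand in Egr2 and Zfp36, and the core of the cyclic AMP response element is repeated in Egr2 and in each Nr4a gene.

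Among other transcription factors of the early response, 7 of 13 tested were called lower and 0 higher (9 and 0 at an unadjusted deposited p under 0.05), against 6.73% lower and 6.79% higher of all tested rows, with a median log2 fold change of -0.50. Taking the test statistic as a normal deviate left 2 lower, Fos and Klf9. The calls so ended included those of Junb (adjusted p = 0.151) and Klf10 (adjusted p = 0.0634). The AP-1 subunit Fos fell to 61.9 FPKM in Pim1-/- against 123 FPKM in WT (1.99-fold lower, error 0.24 on the log2 scale, adjusted p = 0.000831), and its partner Junb to 136 FPKM in Pim1-/- against 211 FPKM in WT (adjusted p = 0.000831), in the authors' deposited table. Also lower were the Krüppel-like factors Klf9 (2.82 FPKM in Pim1-/-, 5.93 FPKM in WT) and Klf10 (13.5 FPKM in Pim1-/-, 23.0 FPKM in WT), while in the authors' deposited table Klf6 was at 52.9 FPKM in Pim1-/- and 51.04 FPKM in WT (adjusted p = 0.881). The fold change of Egr1 was lower than that of Fos by 0.78 on the log2 scale (combined error 0.35).

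Other rapidly induced genes, of mixed function, went both ways. Of 24 tested, 7 were called lower and 4 higher, against 6.73% lower and 6.79% higher of all tested rows, with a median log2 fold change of -0.23. Taking the test statistic as a normal deviate left 5 lower and 1 higher, Dusp4 (adjusted p = 0.0284). This MAP kinase phosphatase gene was low, at 1.06 FPKM in Pim1-/- and 0.211 FPKM in WT (log2 fold change 2.33, error 0.70). The calls ended by the same reading included those of Dusp6 (adjusted p = 0.106), Hbegf (adjusted p = 0.478) and Gadd45b (adjusted p = 0.461). Those lower in the authors' deposited table included the growth arrest gene Gadd45a (10.1 FPKM in Pim1-/-, 23.7 FPKM in WT), the pseudokinase Trib1 (4.75 FPKM in Pim1-/-, 9.88 FPKM in WT), the MAP kinase phosphatase Dusp1 (20.8 FPKM in Pim1-/-, 41.98 FPKM in WT) and the antiproliferative Btg1 (68.3 FPKM in Pim1-/-, 123 FPKM in WT). Those higher in the authors' deposited table included the ERK phosphatase Dusp6 (53.03 FPKM in Pim1-/-, 33.2 FPKM in WT), the EGF receptor ligand Hbegf (5.57 FPKM in Pim1-/-, 3.47 FPKM in WT) and Gadd45b (13.6 FPKM in Pim1-/-, 8.60 FPKM in WT). The NF-kB inhibitor Nfkbia was at 232 FPKM in Pim1-/- and 275 FPKM in WT (adjusted p = 0.231) in the authors' deposited table. Dusp1 and Dusp6, both phosphatases of MAP kinases, had log2 fold changes of -1.01 and 0.68 in the authors' deposited table.

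The kinases and factors upstream of these genes were not called at the RNA level. Of 20 tested, among them Srf, the ternary complex factors Elk1, Elk3 and Elk4, Creb1, Mapk3 and Mapk14, 0 were called in either direction, against 13.5% of all tested rows, and 2 were higher and 0 lower at an unadjusted deposited p under 0.05. Their fold changes lay between -0.23 and 0.54, with a median of -0.06, and the most abundant, the ERK kinase gene Map2k1, was at 62.6 FPKM in Pim1-/- and 58.99 FPKM in WT (adjusted p = 0.788) in the authors' deposited table. RNA levels do not show the activity of a kinase.

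Transcripts reported as targets of tristetraprolin divided between directions. Of 14 tested, 8 were called lower and 5 higher, against 6.73% and 6.79% of all tested rows. Taking the test statistic as a normal deviate left 5 lower and 2 higher. The calls so ended included those of Il6 (adjusted p = 0.151), Tnf (adjusted p = 0.509), Ccl4 (adjusted p = 0.429) and Cxcl2 (adjusted p = 0.0564). The lower ones in the authors' deposited table were led by the neutrophil chemoattractant Cxcl1 (1.19 FPKM in Pim1-/-, 17.4 FPKM in WT), Il1b (40.3 FPKM in Pim1-/-, 123 FPKM in WT), Il1a (22.7 FPKM in Pim1-/-, 57.6 FPKM in WT) and Il6 (2.26 FPKM in Pim1-/-, 5.30 FPKM in WT). The higher ones in the authors' deposited table were led by the monocyte chemoattractants Ccl7 (430 FPKM in Pim1-/-, 62.9 FPKM in WT) and Ccl2 (1135 FPKM in Pim1-/-, 288 FPKM in WT), followed by Tnf (31.9 FPKM in Pim1-/-, 21.97 FPKM in WT) and Ccl4 (432 FPKM in Pim1-/-, 303 FPKM in WT). In the authors' deposited table Ccl3 was at 344 FPKM in Pim1-/- and 400.2 FPKM in WT (adjusted p = 0.336). Of 7 tested heat shock genes, which can respond to stress in handling, 1 was called, against 13.5% of all tested rows, and Hspa1a, Hspa1b and Hspb1 were not tested by the authors. The gene called was Hspa8, lower at 1051 FPKM in Pim1-/- against 1404 FPKM in WT, while in the authors' deposited table Hspe1 was at 323 FPKM in Pim1-/- and 315 FPKM in WT (adjusted p = 0.920).

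**Figure D5:**
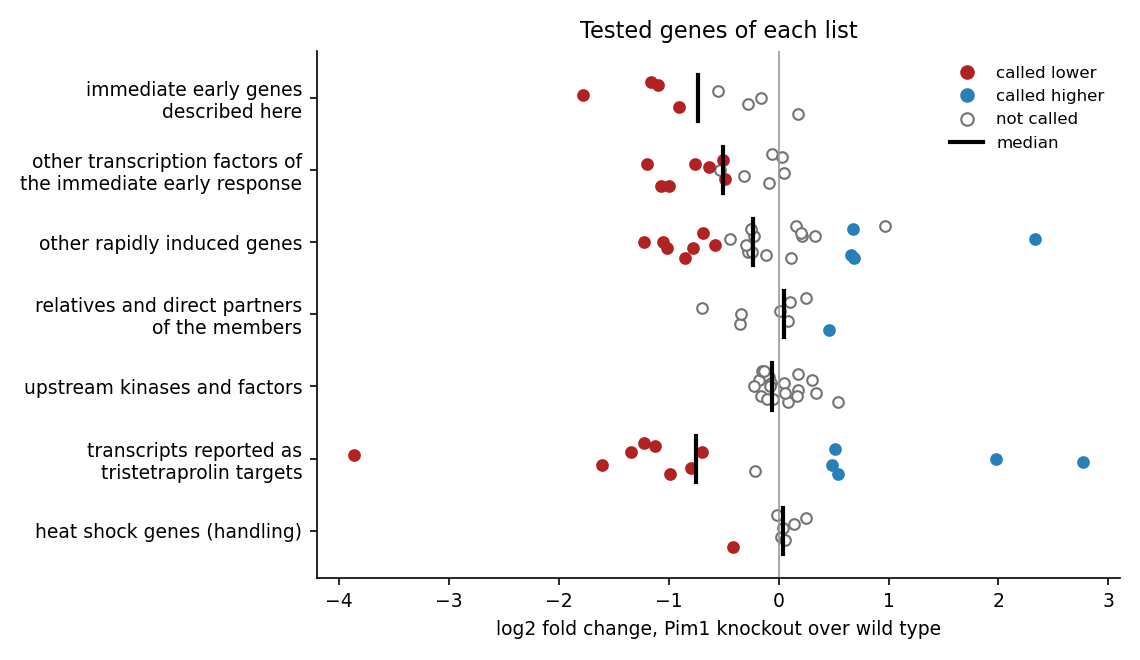
Log2 fold change, Pim1-/- over WT, of every tested gene in each list, called genes filled and medians as black bars. The early response genes described here (median -0.73) and other transcription factors of the response (median -0.50) lie mostly left of 0, the upstream kinases and factors (median -0.06) lie around it, and the reported tristetraprolin targets reach from -3.87 to 2.77.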

How the data were processed

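RNA of 3 Pim1-/- and 3 WT libraries was compared in 1 table. The authors deposited 1 pooled value per gene and genotype, read here as FPKM, and the same authors' table gives the log2 fold change, the test statistic (a score), the p-value and the q-value of each gene, per the file headers. The submitters' processing notes name mm10, but of 23185 symbols found in GENCODE M21, 12.8% had loci that overlap that annotation, so coordinates of the table and of GRCm38.p6 are kept apart. The sources used here do not name the aligner, the counting tool or the use of strand. Calls are deposited q-values under 0.05. The 8 motifs were searched in 250 bases before RefSeq starts. The planned limma fit and any measure of likeness between genes need library values and were not run. The 10 genes and all lists were chosen with earlier results of these data known. The text names the 10 genes, Pim1, the called members of each function list with the largest change (up to 4 each way, mean at least 1 FPKM) with its most abundant uncalled member, and the 2 most abundant members of each marker list. Relatives and others outside that rule were named after their values were seen. Alternatives were calls from the test statistic taken as a normal deviate, other thresholds, filters, pseudocounts and scalings. The adjustment was tested on simulated data. Python 3.11.15, pandas 2.3.3, numpy 2.4.6, scipy 1.17.1 and matplotlib 3.10.9 were used.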

Additional observations from a re-analysis of the deposited data

How the results depend on the processing

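The 4 genes called lower stayed 4, with 0 higher, at thresholds of 0.01 and 0.1, over rows with a mean of at least 1 or 10 FPKM, and with the test statistic taken as a normal deviate, which called 1.46% of tested rows lower. The last gave adjusted p-values of 1.66e-10 for Egr1, 0.000153 for Egr2, 0.000221 for Zfp36 and 0.00652 for Ier2. Leaving out Ier3, near Pim1, an alternative added after the data were seen, also left 4. No direction among the 10 genes reversed. A pseudocount of 1 or 5 took their median log2 fold change to -0.29 or -0.15, by construction, since it shrinks low genes. With the statistic so taken, calls fell to 2 lower among other transcription factors, 1 higher among other rapidly induced genes, 0 higher among relatives, 5 lower and 2 higher among tristetraprolin targets and 0 among heat shock genes. Over rows with a mean of at least 10 FPKM, where fewer genes are tested, these counts were 3, 2 and 0, with 5 lower among tristetraprolin targets. At a threshold of 0.01 relatives had 0 higher and heat shock genes 0 lower, and at 0.1 relatives had 1 lower and upstream genes 1 higher. Expressed as normal deviates, the deposited p-values were a median of 1.74 times the test statistic over rows with a moderate statistic, so the printed errors are wider than those p-values imply. This cannot be read for the 4 genes called lower, whose deposited p of 5e-05 is the smallest given. Leaving out a library was not run, and p-values measure only the spread the authors' program saw. No paired analysis was possible because the table pools the libraries of a genotype.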
